A study of Mus musculus with 24 samples.

Results

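The lysosome of mouse bone marrow-derived macrophages was followed through 42 genes: 10 proteases, 7 genes of lipid handling, 13 hydrolases of glycans and glycosaminoglycans, 7 membrane proteins, 2 other luminal proteins, and 3 transcription factors of the MiT/TFE family. The members were taken from a list of lysosomal hydrolases and membrane proteins by gene symbol, and all 42 were found among the 54532 genes of the deposited table. All 42 reached an FPKM of 1 (fragments per kilobase of exon and per M, or mega, mapped fragments of the library) in all 24 libraries, and all 42 were among the 11377 genes tested. The macrophages came from C57BL/6 bone marrow grown for 7 days in L929-conditioned medium, which supplies macrophage growth factor. Trem2(-/-) macrophages (KO below) were exposed for 24 h to apoptotic cell culture medium (ACM), exposed for 24 h to 500 nM sphingosine-1-phosphate (S1P), or left untreated. Wild-type macrophages (WT) received the same 3 conditions, and each of the 6 groups had 4 libraries. ACM was serum-free medium collected from AML12 cells, a mouse hepatocyte line, made apoptotic with 800 µM palmitic acid. The knockout allele and the medium or vehicle of the untreated wells were not given in the sources used here.

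Lysosomal hydrolases are acid enzymes that take apart proteins, lipids and glycans delivered by endocytosis, phagocytosis and autophagy, and the membrane proteins around them hold the acid, move the products out and pass calcium. Tfeb, Tfe3 and Mitf switch many of these genes on through a CACGTG core in their promoters, the CLEAR element. Trem2 is a macrophage receptor for lipids and for debris of dying cells, and S1P is a sphingolipid messenger that acts on cells through its own receptors.

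Promoter sequences are shown for members whose values are described below, because they carry the letters the MiT/TFE factors are known to bind. RefSeq promoters (build GRCm38.p6, 250 bases before to 50 after a start of the gene) were matched for 39 of 42 members. Some genes have several starts (47 promoters for the 39 members), and a gene counted as a holder if any of its promoters held the letters. CACGTG, which reads the same on both strands, was present for 12 of the 39 members (30.8%), against 8.09% of 27025 genes with a promoter in the table and 12.3% of 8359 such genes among those tested here. TCACGTG, searched on both strands and always overlapping CACGTG, was present for 10 members (25.6%), against 4.29% of all genes and 7.51% of tested genes. The full palindrome TCACGTGA was present for 4 members (10.3%), against 1.12% and 2.42%. Capitals below mark CACGTG, with the T before it and the A after it where they are present. The first 4 sequences belong to the holders of the full palindrome, and Lamp1 had the most matches of all members. For Ctsa and Cln3 the printed promoter lies at a later start, and the promoter at the outer start of each gene held no CACGTG.
Ctsd, chr7:142387908-142388077, minus strand: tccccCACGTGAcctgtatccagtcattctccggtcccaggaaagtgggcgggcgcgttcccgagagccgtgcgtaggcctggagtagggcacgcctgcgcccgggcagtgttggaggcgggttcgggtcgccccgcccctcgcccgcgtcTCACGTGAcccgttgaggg
Ctsa, chr2:164833749-164833795, plus strand: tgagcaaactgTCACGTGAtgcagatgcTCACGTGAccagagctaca
Mcoln1, chr8:3500436-3500491, plus strand: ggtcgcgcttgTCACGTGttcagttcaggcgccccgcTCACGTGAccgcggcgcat
Cln3, chr7:126583340-126583397, minus strand: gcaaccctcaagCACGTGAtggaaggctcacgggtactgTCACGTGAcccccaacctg
Lamp1, chr8:13159088-13159163, plus strand: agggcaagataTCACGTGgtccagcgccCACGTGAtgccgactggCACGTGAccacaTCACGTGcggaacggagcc
Gaa, chr11:119267811-119267840, plus strand: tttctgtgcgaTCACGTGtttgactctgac
Sgsh, chr11:119355522-119355551, minus strand: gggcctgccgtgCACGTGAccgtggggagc

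The matches lay 98 and 245 bases before the start of Ctsd, 45 and 71 before that of Mcoln1, and 15, 28, 45 and 61 before that of Lamp1. Arsa, Ctsf, Ctsl, Glb1 and Naglu also held CACGTG. The promoters of Lipa, Psap, Scarb2, Ctsz, Ctsc and Ppt1, the members with many of the largest differences below, held no CACGTG in this window, which says only that these letters were not in it.

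Depth recovered from the deposited values was 16.6 to 25.2 M (mega) mapped reads per library, and the least covered member, Ctsf, had at least 207 reads in each library. Trem2 averaged 39.2 ± 1.67 FPKM in KO ACM, 39.6 ± 0.983 in KO S1P and 38.2 ± 2.33 in 3 KO untreated libraries, against 90.1 ± 2.73 in WT ACM, 103 ± 4.70 in WT S1P and 77.8 ± 3.72 in WT untreated libraries (SD, n = 4 each otherwise). The library labelled KO untreated 81 had 79.6 FPKM of Trem2, within the 74.5 to 82.7 of WT untreated libraries, and goes against its label, so it is given apart and the tests use the other 23 libraries. The labels name no animals or separate cultures, so each p-value measures only library-to-library spread, which may be technical. The WT libraries carry lower numbers than the KO libraries and each condition has its own run of numbers. The labels do not say what the numbers stand for. Whatever they follow cannot be told apart from the group. The 10 macrophage markers were all kept and summed to 4776 to 5364 FPKM in KO libraries other than 81, against 6496 to 7149 in WT ACM, 4769 to 6415 in WT S1P and 7868 to 8189 in WT untreated libraries, and their part in the results was not tested. By contrast, fibroblast markers summed to at most 0.122 and hepatocyte markers to at most 1.44 with Serpina1a at 0. Granulocyte markers (4 of 10 kept) summed to 15.8 to 23.7 FPKM in KO libraries other than 81 and to 5.59 to 10.9 in WT libraries. Osteoclast markers (4 of 7 kept) summed to 26.1 to 46.1 FPKM in WT S1P libraries, against 14.7 to 16.8 in WT untreated and 15.3 to 17.96 in WT ACM libraries. They summed to 10.3 to 11.1 FPKM in KO S1P libraries and to 10.7 to 14.2 in the other KO libraries apart from 81. The osteoclast markers Acp5 and Ctsk are also on the list of other lysosomal genes read below. Monocyte markers (5 of 5 kept) summed to 11.6 to 21.1 FPKM in WT S1P libraries, against 27.4 to 30.02 in WT untreated and 25.5 to 28.6 in WT ACM libraries. Their sums were 23.9 to 26.1 FPKM in KO S1P libraries and 22.1 to 25.99 in the other KO libraries apart from 81. The part of both lists in the WT S1P results below, and in the differences between KO and WT, was not tested. In bulk libraries, fewer cells of a type and less RNA per cell cannot be told apart.

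Levels are compared on the FPKM scale, which is per length of exon. Over the 23 libraries, 4 members averaged 1000 FPKM or more, 11 averaged 100 to 1000, 21 averaged 10 to 100, and 6 averaged under 10. The highest were Psap (2455 FPKM), the precursor of the saposins that help enzymes reach sphingolipids, Ctsb (1842 FPKM), a cysteine protease, Ctsd (1791 FPKM), the main aspartic protease, and Ctss (1009.9 FPKM), the cysteine protease of antigen processing. The lowest were Ctsf (2.87 FPKM), a cysteine protease, Tfeb (4.28 FPKM), and Arsb (4.99 FPKM), which removes sulfate from dermatan and chondroitin sulfate. Tfeb, Mitf and Tfe3 were all among the 9 members with the lowest means. The summed FPKM of the 42 members averaged 11865 in KO ACM, 11848 in KO S1P and 11707.5 in KO untreated libraries, against 12704 in WT ACM, 12895 in WT S1P and 11033 in WT untreated libraries. These sums are not scaled between libraries and follow the most abundant members, so a higher sum does not mean that most members rose.

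Ctsb (ENSMUSG00000021939, chr14:63122462-63145923) had 1851, 1861, 1978 and 1929.6 FPKM in KO ACM, 1832, 1906, 1869.5 and 1891 in KO S1P, and 1847, 1832 and 1891 in KO untreated libraries. It had 1991, 1968, 2023 and 1952 FPKM in WT ACM, 1795, 1721, 1609 and 1585 in WT S1P, and 1718, 1777, 1764 and 1769.6 in WT untreated libraries. The KO groups overlapped, while the WT ACM libraries were above all WT untreated ones and WT S1P overlapped the untreated. Exons of Fdft1 (mean 11.3 FPKM) on the other strand cover 12.8% of its exon bases.

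**Figure D1:**
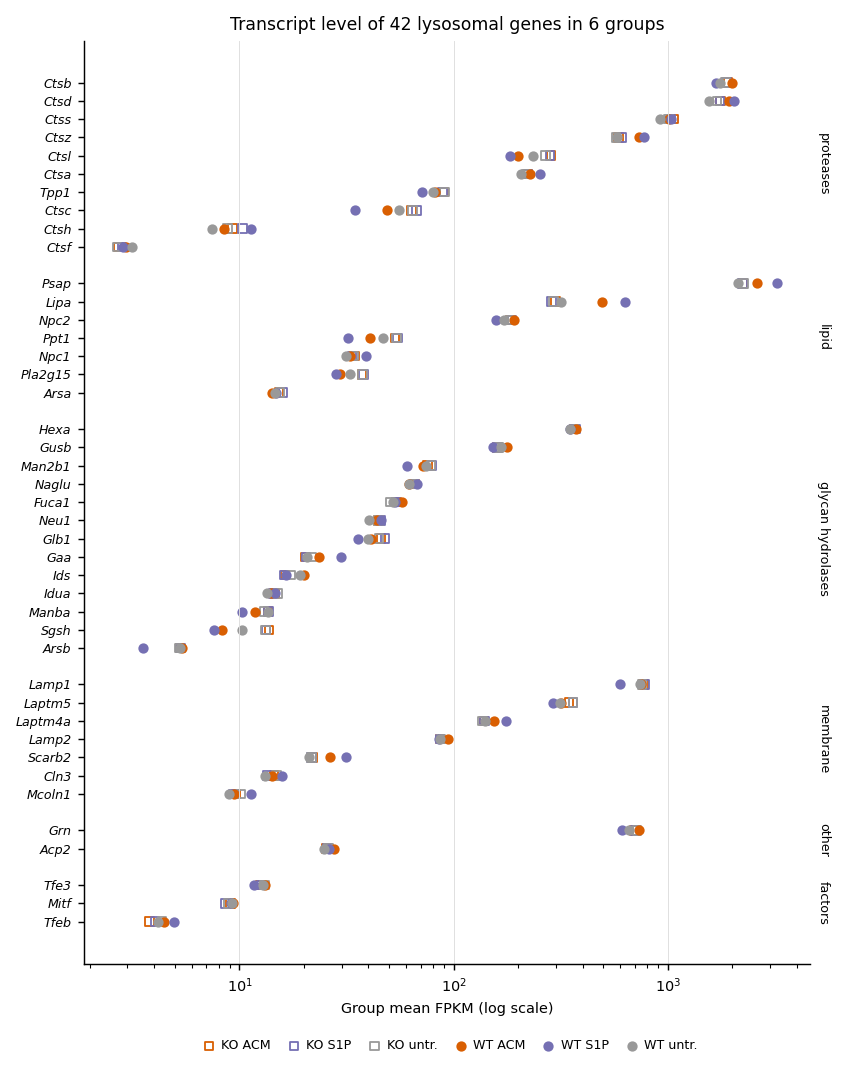
Mean FPKM (log axis) of each of the 42 members in each of the 6 groups, ordered within roles; open squares are KO and filled circles WT, orange is ACM, purple S1P and grey untreated. Psap, Ctsb, Ctsd and Ctss stand at the top near or above 1000 FPKM, and groups of a gene lie close together compared with the distance between genes.

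In WT macrophages, ACM was followed by higher levels of most lysosomal members that moved. Of 42 members, 19 rose and 6 fell against untreated WT (limma on log2(FPKM + 1), adjusted p under 0.05 over 11377 genes), where 24.9% of all genes tested were called. The median log2 difference of the members was 0.08, against 0.00 over all genes. By role, 6 proteases rose and 2 fell of 10, 3 genes of lipid handling rose and 2 fell of 7, 5 glycan hydrolases rose and 2 fell of 13, and 3 membrane proteins rose and 0 fell of 7. Both other luminal members rose, and none of the 3 factors was called. The scaling bears on this split: after scaling each library to a common sum (TPM) 5 rose and 7 fell, with the median of all genes moved by -0.10, and after leaving Gm23935 out of that sum, a 57-base transcript that took 4.38 to 18.6% of summed FPKM, 16 rose and 6 fell.

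Lipa, the lysosomal acid lipase that frees cholesterol and fatty acids from cholesteryl esters and triglycerides (ENSMUSG00000024781, chr19:34492318-34527474), had the largest rise. It had 481, 505, 492 and 484 FPKM in WT ACM libraries, against 316, 313, 311 and 321 FPKM in WT untreated libraries. All ACM libraries lay above all untreated ones, with a 1.56-fold ratio of means and a log2 difference of 0.64 ± 0.032 (SE, limma adjusted p = 9.84e-12). Ctsz, a carboxypeptidase of the cysteine cathepsins (ENSMUSG00000016256, chr2:174427493-174439039), had 721, 730.3, 758 and 733 FPKM in WT ACM libraries, against 575, 579.6, 597 and 571 FPKM in WT untreated libraries. Those groups were also apart, by a log2 difference of 0.34 ± 0.029 (limma adjusted p = 2.19e-08). Ctsd (ENSMUSG00000007891, chr7:142375911-142388038), whose promoter is the first printed above, had 1940.3, 2019.6, 1897 and 1889 FPKM in WT ACM libraries, against 1449.6, 1652, 1518 and 1605 FPKM in WT untreated libraries. The groups did not overlap, and the log2 difference was 0.32 ± 0.035 (limma adjusted p = 8.13e-07), but under quantile normalization it was 0.11 with an adjusted p of 0.209. Exons of Gm49369, listed at a mean of 0 FPKM, cover 34.4% of the exon bases of Ctsd on its own strand.

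Scarb2, the membrane protein that carries glucocerebrosidase to the lysosome (ENSMUSG00000029426, chr5:92441314-92506833), had 26.4, 27.3, 26.6 and 25.4 FPKM in WT ACM libraries, against 21.1, 21.5, 20.46 and 21.4 FPKM in WT untreated libraries. Psap (ENSMUSG00000004207, chr10:60277627-60302597) had 2602, 2564, 2633 and 2664 FPKM in WT ACM libraries, against 2125, 2078, 2230.1 and 2059 FPKM in WT untreated libraries. Neither gene's groups overlapped, and the log2 differences were 0.31 ± 0.029 for Scarb2 (limma adjusted p = 8.41e-08) and 0.30 ± 0.035 for Psap (limma adjusted p = 1.8e-06). The other 14 members that rose did so by 0.09 to 0.18 on the log2 scale. They were the proteases Ctsa, Ctsb, Ctsh and Ctss, the cholesterol carrier Npc2, the glycosidases Hexa, Gusb, Gaa, Neu1 and Fuca1, the membrane proteins Lamp2 and Laptm4a, progranulin (Grn) and acid phosphatase (Acp2). The rise of Ctsh, an aminopeptidase (0.16, adjusted p = 0.0175), missed the threshold when WT ACM 22 or WT untreated 2 was left out, at adjusted p = 0.0561 and 0.0564. By TPM Ctsh, Ctsb and Gaa lost their calls, at 0.05, 0.06 and 0.07 (limma adjusted p = 0.583, 0.48 and 0.475). Ctsb also missed the threshold without the FPKM filter (limma adjusted p = 0.064).

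The 6 members that fell with ACM were led by Sgsh, the sulfamidase of heparan sulfate breakdown (ENSMUSG00000005043, chr11:119343425-119355536). It had 8.27, 8.45, 7.98 and 8.38 FPKM in WT ACM libraries, against 10.7, 10.1, 10.0 and 10.1 FPKM in WT untreated libraries. Every ACM library was below every untreated one, and the log2 difference was -0.28 ± 0.057 (limma adjusted p = 0.00113). Ctsl, a cysteine endopeptidase (ENSMUSG00000021477, chr13:64359337-64370890), had 198, 199, 196 and 201 FPKM in WT ACM libraries, against 227, 229, 245 and 234 FPKM in WT untreated libraries. Ppt1, which removes palmitate from proteins (ENSMUSG00000028657, chr4:122836242-122859175), had 40.3, 39.3, 42.6 and 40.0 FPKM in WT ACM libraries, against 45.8, 46.0, 48.3 and 46.5 FPKM in WT untreated libraries. Both were lower in ACM with no overlap, by -0.23 ± 0.036 for Ctsl (limma adjusted p = 5.1e-05) and -0.20 ± 0.062 for Ppt1 (adjusted p = 0.0235), and the call of Ppt1 was lost without WT ACM 20, WT ACM 22 or WT untreated 3, at adjusted p = 0.0602, 0.053 and 0.0636. Manba, the beta-mannosidase (-0.19), Ctsc, a dipeptidyl peptidase that activates serine proteases (-0.18), and Pla2g15, a lysosomal phospholipase (-0.16), made up the rest. Reads from exons shared with neighbours cannot be assigned without a stated strand setting: such exons make up 21.6% of Sgsh (Card14, mean 0.0704 FPKM), 26.8% of Ctsl (mostly Gm47123, listed at a mean of 0 FPKM) and 3.51% of Ppt1 (Cap1, mean 344 FPKM).

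S1P moved more members in WT macrophages, and as many down as up. Of 42 members, 17 rose and 17 fell against untreated WT, where 54.3% of all genes tested were called. The median log2 difference was -0.01, against 0.00 over all genes. Of the proteases 5 rose and 3 fell, of the lipid genes 3 rose and 3 fell, of the glycan hydrolases 3 rose and 7 fell, and of the membrane proteins 4 rose and 2 fell. The WT S1P libraries were uneven: WT S1P 25 lay nearest to untreated WT for Lipa, Psap, Gaa, Ctsc, Ppt1 and Arsb. The counts of calls with a single library left out were 32 to 35.

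Lipa again rose most. It had 587, 620.4, 654 and 659 FPKM in WT S1P libraries, against the 311 to 321 FPKM of WT untreated libraries. Its mean was 2.00 times that of untreated WT, and the log2 difference was 1.00 ± 0.032 (limma adjusted p = 2.62e-15). Psap had 3006, 3263, 3370.3 and 3255 FPKM in WT S1P libraries, against 2059 to 2230.1 FPKM in WT untreated libraries. Scarb2 had 30.6, 30.2, 32.7 and 32.4 FPKM in WT S1P libraries, against 20.46 to 21.5 FPKM in WT untreated libraries. For both genes each S1P library was above each untreated one, by a log2 difference of 0.60 ± 0.035 for Psap (limma adjusted p = 1.5e-11) and 0.55 ± 0.029 for Scarb2 (limma adjusted p = 2.48e-12).

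Ctsh had 11.7, 11.1, 12.2 and 10.2 FPKM in WT S1P libraries, against 7.76, 7.11, 7.39 and 7.58 FPKM in WT untreated libraries. Gaa, the acid glucosidase of glycogen (ENSMUSG00000025579, chr11:119267887-119285454), had 26.2, 29.6, 32.8 and 31.1 FPKM in WT S1P libraries, against 21.3, 19.8, 20.8 and 20.7 FPKM in WT untreated libraries. Neither gene's groups overlapped, and the S1P libraries of Gaa were the more spread. The log2 differences were 0.54 ± 0.047 for Ctsh (limma adjusted p = 6.22e-09) and 0.51 ± 0.048 for Gaa (limma adjusted p = 1.67e-08). Ctsz rose by 0.41 and Ctsd by 0.38, and neither was called between WT ACM and WT S1P (-0.07 for both, adjusted p = 0.0654 for Ctsz and 0.135 for Ctsd). That depends on the scaling. Both were called lower in ACM by quantile normalization (-0.25 for Ctsz and -0.28 for Ctsd), by median scaling and by TPM without Gm23935 (limma adjusted p of 0.024 or less). The cholesterol transporter Npc1 rose by 0.30, the membrane proteins Laptm4a, Mcoln1 and Cln3 by 0.32, 0.31 and 0.26, and Ctsa, which protects beta-galactosidase and neuraminidase, by 0.30. Exons of other genes cover 17.4% of the exon bases of Ctsa (chiefly Pltp, mean 106 FPKM) and 7.65% of those of Cln3 (Apobr, mean 41.3 FPKM). Reads from these shared exons cannot be assigned without a stated strand setting, and their part in both rises was not tested. Ctss, Neu1, Naglu, Acp2 and Tfeb rose by 0.07 to 0.20.

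Ctsc (ENSMUSG00000030560, chr7:88278085-88310888) fell most with S1P. It had 39.0, 35.1, 32.8 and 31.4 FPKM in WT S1P libraries, against 56.4, 53.7, 57.9 and 54.0 FPKM in WT untreated libraries. All S1P libraries were lower, the mean was 0.623 of that in untreated WT, and the log2 difference was -0.67 ± 0.045 (limma adjusted p = 1.15e-10). Ppt1 had 37.8, 34.1, 28.1 and 28.7 FPKM in WT S1P libraries, against the 45.8 to 48.3 FPKM of WT untreated libraries. Arsb (ENSMUSG00000042082, chr13:93771630-93943016) had 4.27, 3.65, 2.97 and 3.24 FPKM in WT S1P libraries, against 5.73, 5.20, 5.50 and 4.74 FPKM in WT untreated libraries. Both were lower in every S1P library, by -0.53 ± 0.062 for Ppt1 (limma adjusted p = 3.17e-07) and -0.48 ± 0.064 for Arsb (limma adjusted p = 2.14e-06). Exons of other genes, chiefly Gm26527 (listed at a mean of 0 FPKM), cover 39.9% of the exon bases of Arsb.

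Sgsh (-0.39), Manba (-0.37), Ctsl (-0.35), Lamp1 (-0.32), Man2b1 (-0.30), Pla2g15 (-0.22) and Ids (-0.20) also fell. Lamp1, the most abundant of the membrane proteins, had 655, 605, 556 and 565 FPKM in WT S1P libraries, against 704, 790.2, 720.4 and 762 FPKM in WT untreated libraries. The groups were apart (limma adjusted p = 2.16e-06), whereas its companion Lamp2 averaged 85.5 ± 4.57 FPKM in WT S1P and 86.2 ± 3.81 FPKM in WT untreated libraries and was not called. Tpp1, Glb1, Tfe3, Npc2, Laptm5, Gusb and Grn fell by 0.11 to 0.16 on the log2 scale. Ctsb, Arsa, Idua, Ctsf, Hexa, Fuca1, Lamp2 and Mitf were not called.

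**Figure D2:**
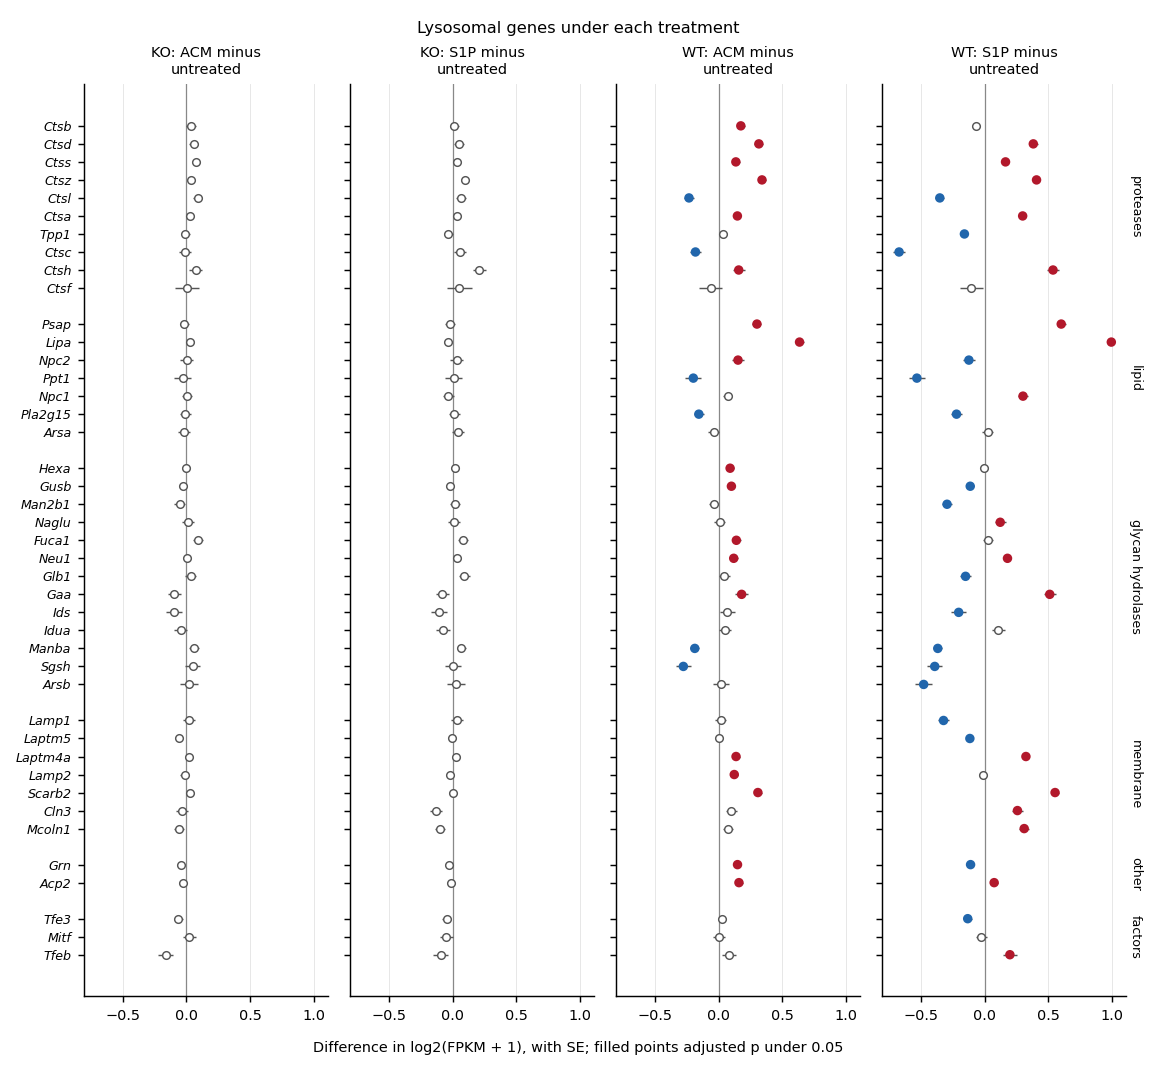
Log2 difference ± SE of each of the 42 members against untreated cells of the same genotype, in 4 panels (KO ACM, KO S1P, WT ACM, WT S1P); filled red is called higher, filled blue called lower, and open not called at an adjusted p of 0.05. The KO panels hold only open points close to 0, while Lipa reaches 0.64 with ACM and 1.00 with S1P in WT.

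The ACM and S1P responses of WT share their untreated libraries, so the treated groups were also set directly against each other. ACM levels were higher than S1P levels for 20 members and lower for 11, where 43.9% of all genes tested were called, with a median log2 difference of 0.08 against 0.00 over all genes. Other scalings split these calls differently, with 9 higher and 11 lower by TPM, 14 and 15 by quantile normalization, 17 and 15 by median scaling, and 17 and 16 by TPM without Gm23935. Arsb averaged 5.37 ± 0.186 FPKM in WT ACM and 3.53 ± 0.564 FPKM in WT S1P (SD, n = 4 each), the largest difference toward ACM at 0.50 ± 0.064 (limma adjusted p = 3.67e-06). Ctsc averaged 48.8 ± 1.18 FPKM in WT ACM and 34.6 ± 3.34 FPKM in WT S1P (0.49 ± 0.045, limma adjusted p = 7.23e-08). Lamp1 averaged 752 ± 25.5 FPKM in WT ACM and 595 ± 44.9 FPKM in WT S1P (0.34 ± 0.044, limma adjusted p = 3.5e-06). For each of these 3 genes the 4 ACM libraries were above the 4 S1P libraries.

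Toward S1P, Ctsh averaged 8.44 ± 0.264 FPKM in WT ACM and 11.3 ± 0.867 FPKM in WT S1P (-0.38 ± 0.047, limma adjusted p = 2.47e-06). Lipa averaged 490.5 ± 10.99 FPKM in WT ACM and 629.9 ± 33.6 FPKM in WT S1P (-0.36 ± 0.032, limma adjusted p = 4.94e-08). Gaa averaged 23.5 ± 0.853 FPKM in WT ACM and 29.9 ± 2.78 FPKM in WT S1P (-0.33 ± 0.048, limma adjusted p = 1.31e-05). All 7 membrane proteins differed, with Lamp1, Lamp2 and Laptm5 higher in ACM and Mcoln1, Scarb2, Laptm4a and Cln3 higher in S1P. Against untreated WT, 3 members rose with ACM and fell with S1P: Npc2 (0.15 and -0.12), Gusb, the beta-glucuronidase (0.10 and -0.11), and Grn (0.15 and -0.11). Each was also higher in ACM than in S1P, by 0.28, 0.21 and 0.26. These 3 were picked out after their values were seen.

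In KO macrophages no member was called after either treatment. With ACM 0 of 42 members were called by limma and 4 had an unadjusted p under 0.05, where 0.0439% of all genes tested were called. The median log2 difference was 0.00, against 0.01 over all genes, and the differences ran from -0.16 for Tfeb, whose adjusted p of 0.464 was the smallest, to 0.09 for Fuca1, the fucosidase. The 95% intervals of all 42 members lay between -0.29 and 0.21 on the log2 scale. With S1P 0 of 42 were called and 4 had an unadjusted p under 0.05, where 0.185% of all genes tested were called. The median was 0.01, against 0.01 over all genes, the differences ran from -0.13 for Cln3 to 0.21 for Ctsh (adjusted p = 0.130, the smallest), and the intervals lay between -0.24 and 0.32. With library 81 included, 0 members were again called in both comparisons, where 0.00879% of all genes were called in each.

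The values in KO libraries lay close together. Lipa had 294, 298, 304 and 298 FPKM in KO ACM, 276, 289.9, 291 and 286 FPKM in KO S1P, and 283, 296 and 299 FPKM in KO untreated libraries. Both treated groups overlapped untreated KO, while each ACM library was above each S1P one, and the ratios to untreated KO were 1.02 for ACM and 0.976 for S1P. Psap had 2131, 2217, 2312 and 2279.7 FPKM in KO ACM, 2181, 2243, 2216 and 2264 FPKM in KO S1P, and 2202, 2275 and 2300.4 FPKM in KO untreated libraries. Ctsh had 9.30, 8.77, 9.08 and 10.0 FPKM in KO ACM, 9.80, 10.9, 9.88 and 10.6 FPKM in KO S1P, and 8.77, 8.70 and 8.84 FPKM in KO untreated libraries. Psap overlapped across all 3 groups, while all 4 S1P libraries of Ctsh were above the 3 untreated ones. Set against each other, ACM and S1P left 0 of 42 members called in KO (3 with an unadjusted p under 0.05), where 0.246% of all genes tested were called, with intervals from -0.24 to 0.18 and the smallest adjusted p at 0.374 for Ctsh.

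Members that moved in WT were mostly level in KO. Scarb2 had 21.9, 22.5, 21.5 and 22.4 FPKM in KO ACM, 21.4, 21.7, 21.8 and 21.7 in KO S1P, and 21.4, 22.2 and 21.4 in KO untreated libraries. Ctsd had 1713, 1778, 1797 and 1738 FPKM in KO ACM, 1696, 1749, 1766 and 1801 in KO S1P, and 1713, 1651 and 1706 in KO untreated libraries. Arsb had 5.17, 5.40, 5.49 and 5.10 FPKM in KO ACM, 5.32, 4.93, 5.55 and 5.45 in KO S1P, and 5.29, 4.99 and 5.34 in KO untreated libraries. The treated KO libraries overlapped the untreated ones for Scarb2, Ctsd and Arsb. Lamp1 had 753, 780.3, 753 and 791 FPKM in KO ACM, 759, 789, 769 and 789.5 in KO S1P, and 762, 747 and 765 in KO untreated libraries. Ctsc had 64.5, 61.9, 63.7 and 64.2 FPKM in KO ACM libraries, against the 63.3 to 65.6 FPKM of KO untreated libraries. These groups overlapped as well. Ctsl had 275, 288, 288 and 289 FPKM in KO ACM, 274, 287, 281 and 283 in KO S1P, and 270.2, 269.7 and 265 in KO untreated libraries. Its treated KO libraries were all above the untreated ones without a call, by 0.09 ± 0.038 with ACM (limma adjusted p = 0.589) and 0.07 ± 0.038 with S1P (adjusted p = 0.641), in the direction opposite to WT. Ctsz had 594, 629, 607 and 616 FPKM in KO S1P libraries, against 574, 570.1 and 574 FPKM in KO untreated libraries, also apart and not called (0.09 ± 0.031, limma adjusted p = 0.297).

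**Figure D3:**
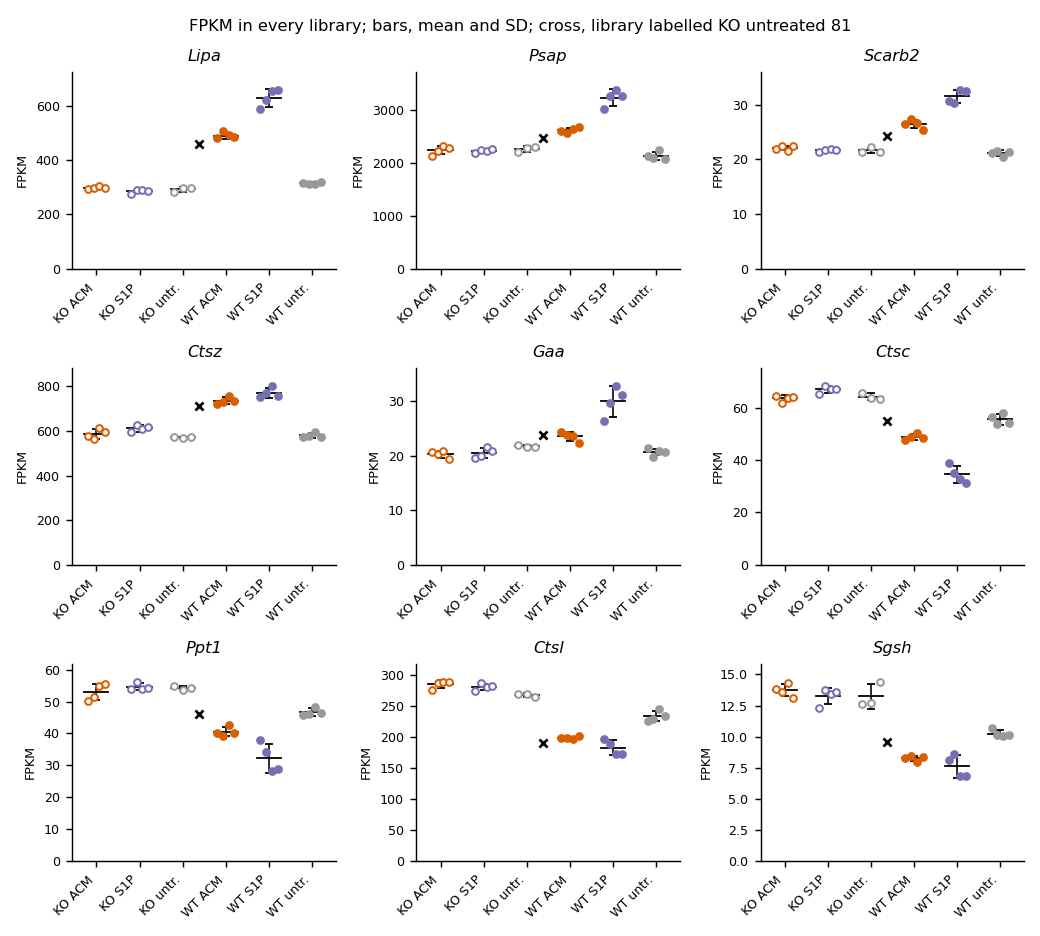
FPKM of 9 members in every library by group, with the group mean and SD; KO groups stand left of WT groups and the cross is the library labelled KO untreated 81. Lipa, Psap, Scarb2, Ctsz and Gaa are higher in the treated WT libraries than in the untreated WT ones, Ctsc, Ppt1, Ctsl and Sgsh are lower there, and the KO groups lie at 1 level for most of these genes.

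Whether the response itself differed between genotypes was tested as an interaction, the KO change minus the WT change. For ACM 3 members had a positive and 9 a negative interaction, where 14.9% of all genes tested were called, with a median of -0.09 against 0.01 over all genes. With all 24 libraries 4 were positive and 14 negative, where 17.1% of all genes were called. The split moved with the scaling, to 4 positive and 1 negative by TPM (5 calls against 12) and to 5 and 8 by TPM without Gm23935. Without WT S1P 25, which enters only through the shared estimate of spread, 18 members were called. The strongest negative interactions with ACM were those of Lipa (-0.61 ± 0.047, limma adjusted p = 3.38e-08), Psap (-0.32 ± 0.052, adjusted p = 0.000223), Ctsz (-0.31 ± 0.042, adjusted p = 3.91e-05), Scarb2 (-0.28 ± 0.042, adjusted p = 9.8e-05), Gaa (-0.28 ± 0.071, adjusted p = 0.011) and Ctsd (-0.26 ± 0.051, adjusted p = 0.00128). By TPM the interactions of Psap, Ctsz, Scarb2, Gaa and Ctsd kept their sign and missed the threshold. Those of Psap and Ctsd also missed it without the FPKM filter (limma adjusted p = 0.0857 and 0.0824), and that of Ctsd by quantile normalization (adjusted p = 0.165). Sgsh (0.33 ± 0.084, limma adjusted p = 0.0116), Ctsl (0.32 ± 0.052, adjusted p = 0.000245) and Manba (0.25 ± 0.052, adjusted p = 0.00249) were the 3 positive ones, and Grn (-0.19), Acp2 (-0.19) and Ctsa (-0.12) completed the negative ones.

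Manba shows the shape of a positive interaction. It had 13.5, 13.1, 14.2 and 13.6 FPKM in KO ACM, 13.4, 13.5, 13.8 and 13.9 in KO S1P, and 12.8, 13.5 and 12.7 in KO untreated libraries. It had 11.1, 12.5, 11.9 and 11.6 FPKM in WT ACM, 10.4, 9.74, 10.5 and 10.4 in WT S1P, and 13.98, 13.9, 13.0 and 13.2 in WT untreated libraries. The treated WT libraries were all below the untreated WT ones, while the KO groups overlapped. Gaa, with a negative interaction, had 20.6, 20.2, 20.8 and 19.4 FPKM in KO ACM libraries, against 21.9, 21.6 and 21.6 FPKM in KO untreated libraries. In WT it had 24.3, 23.8, 23.7 and 22.3 FPKM in ACM libraries, against 21.3, 19.8, 20.8 and 20.7 FPKM in untreated libraries. Its ACM libraries were thus below untreated in KO, with no call, and above untreated in WT.

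For S1P 12 members had a positive and 15 a negative interaction, where 41.5% of all genes tested were called, with a median of 0.02 against 0.00 over all genes. With all 24 libraries the counts were again 12 and 15, where 41.9% of all genes were called. Lipa led with -1.03 ± 0.047 (limma adjusted p = 2.29e-12), then Psap with -0.62 ± 0.052 (adjusted p = 1.27e-08), Gaa with -0.59 ± 0.071 (adjusted p = 1.62e-06) and Scarb2 with -0.55 ± 0.042 (adjusted p = 4.07e-09). Mcoln1 (-0.41), Cln3 (-0.39), Ctsd (-0.33), Npc1 (-0.33), Ctsh (-0.33), Ctsz (-0.31), Laptm4a (-0.29), Tfeb (-0.29), Ctsa (-0.27), Neu1 (-0.14) and Ctss (-0.13) were the other negative ones. On the positive side stood Ctsc with 0.73 ± 0.066 (limma adjusted p = 3.82e-08), Ppt1 with 0.54 ± 0.091 (adjusted p = 6.94e-05) and Arsb with 0.50 ± 0.095 (adjusted p = 0.000225). Manba (0.44), Ctsl (0.42), Sgsh (0.39), Lamp1 (0.36), Man2b1 (0.31), Pla2g15 (0.24), Glb1 (0.24), Tpp1 (0.13) and Laptm5 (0.12) completed them. By role, 4 membrane proteins were negative and 2 positive of 7, and 2 glycan hydrolases were negative and 5 positive of 13.

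KO and WT macrophages were next compared within each condition. Under ACM 9 members were higher in KO and 12 lower, where 29.6% of all genes tested were called, with a median log2 difference of -0.02 against 0.01 over all genes. The split was 9 higher and 4 lower by TPM, 15 and 7 by quantile normalization, 9 and 15 by median scaling, and 15 and 10 by TPM without Gm23935. Granulocyte markers were higher in KO libraries and osteoclast markers lower (above). Monocyte markers were higher in KO than in WT under S1P. The part of these lists in the differences between KO and WT was not tested.

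Lipa had 294 to 304 FPKM in KO ACM libraries, against 481 to 505 FPKM in WT ACM libraries, a ratio of 0.609 and a log2 difference of -0.71 ± 0.032 (limma adjusted p = 5.92e-13). Ctsz had 576, 565, 614 and 594 FPKM in KO ACM libraries, against 721 to 758 FPKM in WT ACM libraries. Ids, the iduronate sulfatase of heparan and dermatan sulfate, had 16.0, 17.9, 16.0 and 15.2 FPKM in KO ACM libraries, against 20.8, 19.8, 19.7 and 19.9 FPKM in WT ACM libraries. In all 3 genes the KO libraries were below the WT ones, by -0.32 ± 0.029 for Ctsz (limma adjusted p = 1.58e-08) and -0.29 ± 0.058 for Ids (adjusted p = 0.000646). Scarb2 (-0.25), Psap (-0.23), Gaa (-0.21), Tfeb (-0.19), Gusb (-0.16), Laptm4a (-0.15), Ctsd (-0.14), Lamp2 (-0.12) and Acp2 (-0.12) were also lower in KO. Under quantile normalization Psap was at -0.03 (adjusted p = 0.597) and Ctsd at -0.11 (adjusted p = 0.192).

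Sgsh had 13.9, 13.6, 14.3 and 13.1 FPKM in KO ACM libraries, against 8.27, 8.45, 7.98 and 8.38 FPKM in WT ACM libraries. Ctsl had 275, 288, 288 and 289 FPKM in KO ACM libraries, against 196 to 201 FPKM in WT ACM libraries. Ppt1 had 50.3, 51.6, 54.8 and 55.5 FPKM in KO ACM libraries, against 39.3 to 42.6 FPKM in WT ACM libraries. KO was above WT in each library of these 3 genes, by 0.67 ± 0.057 for Sgsh (limma adjusted p = 1.08e-08), 0.52 ± 0.036 for Ctsl (limma adjusted p = 3.96e-10) and 0.38 ± 0.062 for Ppt1 (adjusted p = 6.63e-05). Ctsc (0.37), Pla2g15 (0.33), Manba (0.19), Glb1 (0.15), Tpp1 (0.14) and Laptm5 (0.13) were the other members higher in KO.

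Under S1P 17 members were higher in KO and 13 lower, where 53.9% of all genes tested were called, with a median of 0.01 against 0.00 over all genes. Lipa had 276 to 291 FPKM in KO S1P libraries, against 587 to 659 FPKM in WT S1P libraries, a ratio of 0.454 and a log2 difference of -1.14 ± 0.032 (limma adjusted p = 1.2e-16). Psap had 2181 to 2264 FPKM in KO S1P libraries, against 3006 to 3370.3 FPKM in WT S1P libraries (-0.53 ± 0.035, limma adjusted p = 7.42e-11). Gaa had 19.6, 19.96, 21.6 and 20.9 FPKM in KO S1P libraries, against 26.2 to 32.8 FPKM in WT S1P libraries (-0.52 ± 0.048, limma adjusted p = 1.15e-08). None of these groups overlapped. Scarb2 was lower in KO by a similar step (-0.52), followed by Ctsz (-0.33), Laptm4a (-0.32), Mcoln1 (-0.24), Tfeb (-0.24), Cln3 (-0.22), Ctsd (-0.21), Npc1 (-0.21), Ctsa (-0.18) and Ctsh (-0.12). The call of Ctsh was lost, with adjusted p of 0.0969 to 0.149, when KO S1P 91, KO S1P 93, WT S1P 25 or WT S1P 27 was left out.

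Ctsc had 65.2, 68.3, 67.2 and 67.0 FPKM in KO S1P libraries, against 31.4 to 39.0 FPKM in WT S1P libraries. Ppt1 had 53.9, 56.2, 54.1 and 54.2 FPKM in KO S1P libraries, against 28.1 to 37.8 FPKM in WT S1P libraries. Sgsh had 12.3, 13.8, 13.4 and 13.6 FPKM in KO S1P libraries, against 8.14, 8.60, 6.79 and 6.84 FPKM in WT S1P libraries. All KO libraries were above all WT libraries, by 0.94 ± 0.045 for Ctsc (a ratio of 1.94, limma adjusted p = 5.58e-13), 0.75 ± 0.062 for Ppt1 (limma adjusted p = 2.17e-09) and 0.74 ± 0.057 for Sgsh (limma adjusted p = 9.27e-10). Ctsl (0.62), Arsb (0.49), Pla2g15 (0.42), Glb1 (0.41), Lamp1 (0.39), Man2b1 (0.39) and Manba (0.38) followed, and the other 7, Tpp1, Laptm5, Npc2, Grn, Ctsb, Tfe3 and Hexa, were higher by 0.09 to 0.31. Ctsb changed sign under quantile normalization (-0.05, adjusted p = 0.161, against 0.16 in the values as deposited).

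**Figure D4:**
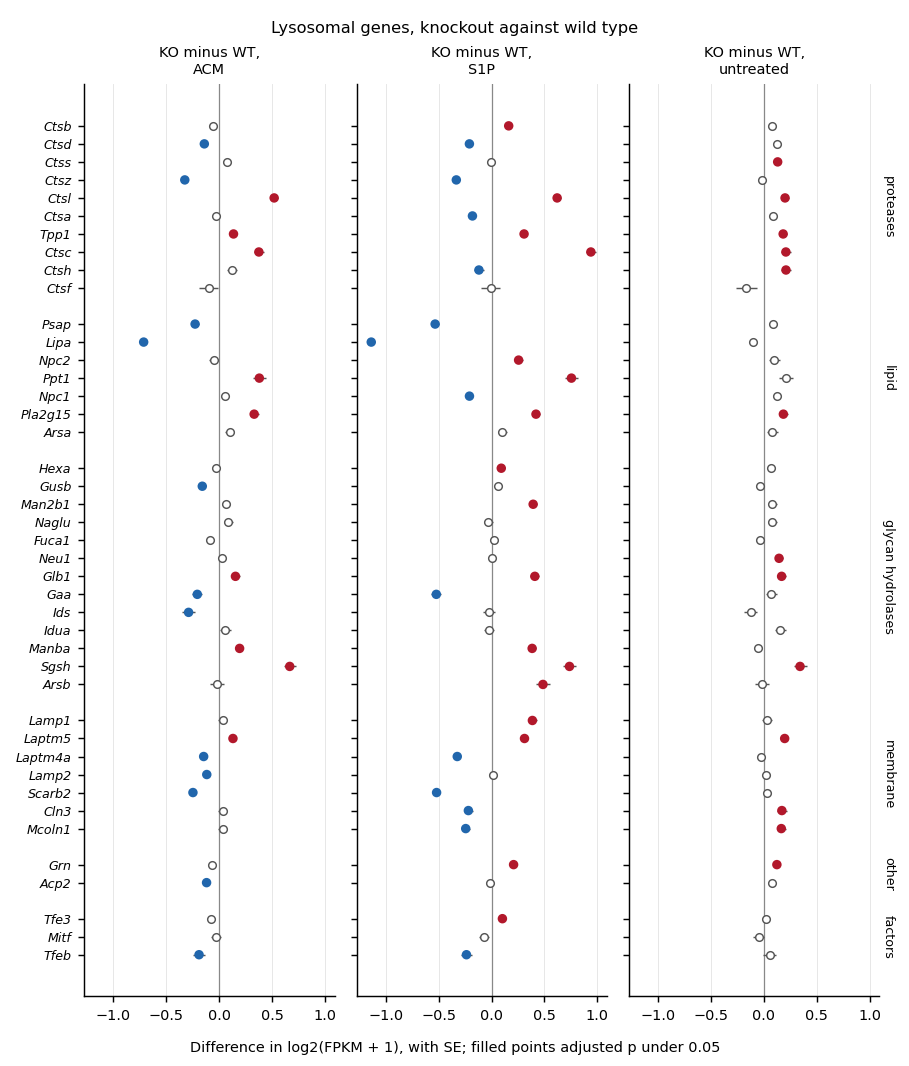
Log2 difference ± SE of KO minus WT for the 42 members under ACM, S1P and no treatment; filled red is higher in KO, filled blue lower in KO, open not called. Lipa lies at -0.71 with ACM and -1.14 with S1P but at -0.11 and open in untreated cells, where all 13 filled points are red.

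In untreated cells the genotypes were closer, and the members called were all higher in KO. Of 42 members, 13 were higher and 0 lower, where 8.16% of all genes tested were called (470 higher and 458 lower), with a median of 0.08 against -0.01 over all genes. This count rests on few libraries. With all 24 libraries 6 were higher and 0 lower, where 2.47% of all genes were called. With a single library left out the count was 7 (without KO untreated 82) to 18 (without WT S1P 25), the 18 being 17 higher and 1 lower, and by TPM it was 1. Sgsh had 12.6, 12.7 and 14.4 FPKM in KO untreated libraries, against 10.0 to 10.7 FPKM in WT untreated libraries (0.34 ± 0.062, limma adjusted p = 0.00113). Ctsh had 8.77, 8.70 and 8.84 FPKM in KO untreated libraries, against 7.11 to 7.76 FPKM in WT untreated libraries (0.21 ± 0.051, adjusted p = 0.0122). Ctsc had 65.6, 63.8 and 63.3 FPKM in KO untreated libraries, against 53.7 to 57.9 FPKM in WT untreated libraries (0.21 ± 0.048, adjusted p = 0.00881).

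In all 3 genes these KO libraries were above the WT ones. Library 81 had 9.60 FPKM of Sgsh, below the WT untreated range, 55.0 FPKM of Ctsc, within it, and 7.98 FPKM of Ctsh, above it and under the other KO untreated libraries. The smallest adjusted p was that of Laptm5, a lysosomal protein of blood cells, which averaged 360 ± 10.8 FPKM in KO untreated (n = 3) and 314 ± 10.7 FPKM in WT untreated libraries (n = 4; 0.20 ± 0.030, limma adjusted p = 0.000225). Ctsl (0.20), Tpp1 (0.18), Pla2g15 (0.18), Glb1 (0.17), Cln3 (0.17), Mcoln1 (0.16), Neu1 (0.14), Ctss (0.13) and Grn (0.12) completed the 13. With library 81 included, the calls lost included those of Ctsc, Ctsh, Ctsl, Mcoln1, Sgsh and Pla2g15. Ctsd was then called higher in KO (0.16, limma adjusted p = 0.0398). Lipa averaged 293 ± 8.30 FPKM in KO untreated and 315 ± 4.06 FPKM in WT untreated libraries and was not called (-0.11 ± 0.034, adjusted p = 0.0608). Without WT S1P 25 or WT S1P 28, which enter only through the shared estimate of spread, it was called lower in KO, at adjusted p = 0.0158 and 0.0453.

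The library labelled KO untreated 81 did not sit with the other KO untreated libraries for the members either. It had 459.5 FPKM of Lipa, against 283 to 299 FPKM in the other KO untreated libraries, and 712 FPKM of Ctsz, against 570.1 to 574. Ctsl stood at 190.3 FPKM against 265 to 270.2, and Ppt1 at 46.0 against 53.6 to 54.8. Its Lipa and Ctsz levels were below the WT ACM ranges (481 to 505 and 721 to 758 FPKM) and the WT S1P ranges (587 to 659 and 753 to 802 FPKM), and above those of untreated cells of either genotype. Its Ctsl level was within the WT S1P range (173 to 197 FPKM), just below the WT ACM range (196 to 201 FPKM) and below those of untreated cells.

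Of the MiT/TFE factors and their calcium channel, Tfeb and Mcoln1 moved a little and Mitf was not called anywhere. Tfeb (ENSMUSG00000023990, chr17:47737030-47792419) had 3.22, 3.77, 4.23 and 3.96 FPKM in KO ACM, 4.07, 4.37, 3.67 and 4.01 in KO S1P, and 4.37, 4.09 and 4.62 in KO untreated libraries. It had 4.49, 4.21, 4.85 and 4.30 FPKM in WT ACM, 4.72, 4.95, 4.96 and 5.07 in WT S1P, and 4.26, 4.21, 4.19 and 3.99 in WT untreated libraries. Its WT S1P libraries were above every untreated library, and Tfeb rose with S1P in WT by 0.20 ± 0.056 (adjusted p = 0.00501; 0.17 and adjusted p = 0.0812 by TPM) and was not called with ACM (0.08 ± 0.056, adjusted p = 0.334). KO was lower than WT by -0.19 ± 0.056 under ACM (adjusted p = 0.0134), a call lost without KO ACM 85 (adjusted p = 0.0645) or WT ACM 21 (adjusted p = 0.0555), by TPM (adjusted p = 0.193) and with only the compared groups in the fit (adjusted p = 0.0626), and by -0.24 ± 0.056 under S1P (adjusted p = 0.00117).

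Mcoln1, the calcium channel of the lysosomal membrane (ENSMUSG00000004567, chr8:3500457-3515232), had 9.55, 9.39, 9.97 and 9.71 FPKM in KO ACM, 8.78, 9.45, 9.31 and 9.94 in KO S1P, and 9.95, 9.98 and 10.3 in KO untreated libraries. It had 9.59, 9.45, 9.47 and 9.19 FPKM in WT ACM, 10.4, 11.5, 11.4 and 11.9 in WT S1P, and 9.05, 8.90, 9.26 and 8.39 in WT untreated libraries. WT S1P was above all other groups, at 0.31 ± 0.039 over untreated WT (limma adjusted p = 7.38e-07) and with KO lower under S1P by -0.24 ± 0.039 (adjusted p = 1.67e-05). In untreated cells Mcoln1 was higher in KO by 0.16 ± 0.042 (adjusted p = 0.016), a call lost without KO untreated 82 (adjusted p = 0.0827) or WT untreated 4 (adjusted p = 0.0593).

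Tfe3 had 12.6, 13.0, 12.01 and 12.2 FPKM in KO ACM, 12.7, 12.8, 12.2 and 12.7 in KO S1P, and 13.0, 13.1 and 13.1 in KO untreated libraries. It had 13.4, 12.7, 13.2 and 13.4 FPKM in WT ACM, 11.7, 11.6, 11.5 and 11.9997 in WT S1P, and 12.2, 13.4, 13.5 and 12.7 in WT untreated libraries. The WT S1P libraries were the low group: Tfe3 fell with S1P in WT by -0.13 ± 0.032 (adjusted p = 0.00123), and it was higher in KO than in WT under S1P by 0.10 ± 0.032 (adjusted p = 0.00917). That genotype call was lost by TPM (0.05, adjusted p = 0.405) and by median scaling (0.07, adjusted p = 0.0625). Mitf had 8.47, 9.84, 8.70 and 9.29 FPKM in KO ACM, 8.98, 8.94, 8.07 and 8.34 in KO S1P, and 8.77, 8.98 and 8.96 in KO untreated libraries. It had 9.89, 9.50, 8.67 and 9.05 FPKM in WT ACM, 8.78, 8.63, 9.36 and 9.55 in WT S1P, and 8.98, 9.46, 9.52 and 9.07 in WT untreated libraries. Its ACM, S1P and untreated groups overlapped within each genotype, and its log2 differences in the 11 comparisons lay between -0.07 and 0.07. These are transcript levels, and the place of the factors in the cell was not measured.

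**Figure D5:**
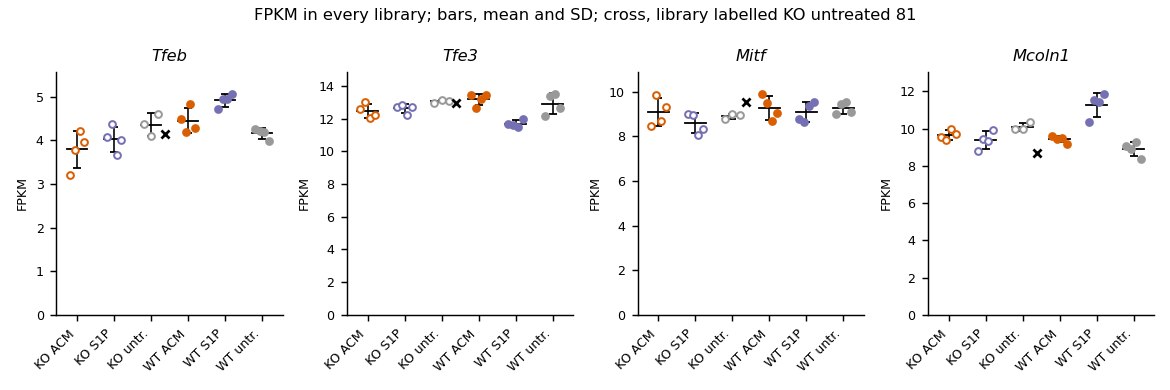
FPKM of Tfeb, Tfe3, Mitf and Mcoln1 in every library by group, KO groups left of WT groups, with mean and SD; the cross is the library labelled KO untreated 81. In WT S1P libraries Tfeb (4.72 to 5.07) and Mcoln1 (10.4 to 11.9) are high and Tfe3 (11.5 to 11.9997) is low, while Mitf overlaps across groups.

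Members with CACGTG in their promoter were not moved in a single direction. With ACM in WT 3 rose and 2 fell of the 12 holders, against 14 that rose and 4 that fell of the 27 matched members without it, where 24.9% of all genes tested were called. With S1P in WT 6 holders rose and 4 fell, against 9 that rose and 13 that fell of those without, where 54.3% were called. The 4 holders of the full palindrome printed above, Ctsd, Ctsa, Mcoln1 and Cln3, all rose with S1P in WT (0.38, 0.30, 0.31 and 0.26), where 26.3% of all genes tested were called higher. Exons of Ctsd, Ctsa and Cln3 are partly shared with other genes, as given above. Lamp1, with 4 matches, fell by 0.32 on the log2 scale. With ACM in WT, Ctsd and Ctsa rose while Mcoln1 and Cln3 were not called. These counts are descriptions, and binding was not measured.

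The wider lysosome was read from a list of 74 other lysosomal genes, of which 72 were kept: 30 hydrolases, 24 membrane proteins and transporters, 8 delivery proteins and 10 genes in control of the Tfeb family. With ACM in WT 18 rose and 8 fell, where 24.9% of all genes tested were called. With S1P 32 rose and 19 fell, where 54.3% were called, with 15 of the 24 membrane proteins and transporters up and 4 down after S1P. In KO 0 were called after either treatment, with 8 at an unadjusted p under 0.05 in each. Slc15a3, a lysosomal transporter of peptides and histidine, averaged 94.4 ± 1.47 FPKM in WT ACM, 93.96 ± 0.932 in WT S1P and 66.1 ± 1.49 in WT untreated libraries, a rise of 0.51 with ACM (limma adjusted p = 1.1e-11) and 0.50 with S1P (limma adjusted p = 2.2e-12). Rraga, a GTPase that brings mTORC1 to the lysosome, averaged 71.3 ± 2.24 FPKM in WT ACM, 79.2 ± 1.41 in WT S1P and 55.4 ± 1.83 in WT untreated libraries (0.36 and 0.51). Tpcn2, a lysosomal cation channel, rose by 0.42 with ACM.

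Clcn7, the chloride-proton exchanger of the lysosome, averaged 54.6 ± 1.77 FPKM in KO S1P and 80.01 ± 5.35 FPKM in WT S1P libraries, with an S1P interaction of -0.64 (limma adjusted p = 4.87e-08). Cd164, a sialomucin, averaged 73.8 ± 2.17 FPKM in KO ACM, 75.2 ± 2.14 in KO S1P and 75.1 ± 1.55 in KO untreated libraries, against 45.4 ± 1.87 in WT ACM, 38.6 ± 1.07 in WT S1P and 55.7 ± 2.93 in WT untreated libraries. It was higher in KO by 0.69, 0.94 and 0.43 in the ACM, S1P and untreated comparisons, and it fell with S1P in WT (-0.52). Between KO and WT, 22 of the 72 were higher and 13 lower under ACM, 26 and 27 under S1P, and 12 and 3 in untreated cells, where 29.6%, 53.9% and 8.16% of all genes tested were called. In untreated cells Lgmn, the asparaginyl endopeptidase legumain, was higher by 0.30 (limma adjusted p = 0.000898) and Man2b2, a mannosidase, by 0.24. Interactions were positive for 8 and negative for 11 with ACM (14.9% of all genes called), and positive for 15 and negative for 29 with S1P (41.5% of all genes called). Rragd, another GTPase of the mTORC1 pathway, averaged 4.56 ± 0.239 FPKM in WT ACM and 7.47 ± 1.15 FPKM in WT S1P libraries (-0.60, limma adjusted p = 1.14e-06).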

How the data were processed

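RNA was extracted with Trizol and messenger RNA enriched with oligo(dT) beads, per the labels' protocols. The authors deposited 1 table of FPKM for 54532 genes. Tools named in the submitters' processing notes are STAR, HISAT2, StringTie, featureCounts, DESeq, edgeR and STAR-Fusion, on builds mm10 and GRCm38, with roles, versions and strandedness not given in the sources used here. GENCODE M21 (GRCm38) named 54495 genes and gave the coordinates. FPKM are not counts, so no count test was used: limma 3.58.1 (R 4.3.3) was fitted to log2(FPKM + 1) of 11377 genes that reached FPKM 1 in 4 or more of 24 libraries, as 6 group means over 23 libraries with a mean-variance trend, and p-values were adjusted by Benjamini-Hochberg over all of them. A fold change on this scale understates changes of low genes. Reads were recovered from the FPKM only to give depth (95.6 to 96.6% of values whole within 0.05). The procedure was tested on simulated data. Members, gene lists and tests were chosen with earlier results of these data known. Values in every library are given for the 3 largest called rises and falls in each comparison, the MiT/TFE factors with Mcoln1, and the 3 highest members, and other lysosomal genes are named by smallest adjusted p. Alternatives were all 24 libraries, a pseudocount of 0.1, no filter, a filter at 5, TPM, quantile and median scaling, robust eBayes, fits of the compared groups only, each library left out, and TPM without Gm23935, which was added after seeing the data.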

Additional observations from a re-analysis of the deposited data

Results flagged for a closer look

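Of 120 sets of libraries checked, 1 member in 1 group each, 10 held a library far from the others of its group, and chance gives about 1 in 20. Of these, 6 were the library labelled KO untreated 81, which goes against its label: Lipa at 459.5, Ctsz at 712, Ctsl at 190.3, Gaa at 23.7, Ppt1 at 46.0 and Ctsh at 7.98 FPKM. The other 4 were single libraries close in level to their group, namely Ctsl in KO ACM 85 (275 FPKM), Manba in KO untreated 80 (13.5 FPKM), Ppt1 in KO S1P 92 (56.2 FPKM) and Tfe3 in KO S1P 93 (12.2 FPKM). Library 81 was counted in the KO untreated sets of this check, so it is among the libraries that KO untreated 80 was set against for Manba.

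For 25 changes of members described in full, the response of KO differed from that of WT by the test of the interaction (limma, adjusted p under 0.05). Of all genes tested, 14.9% were called in this test with ACM and 41.5% with S1P. These members were chosen partly for large called differences and interactions, so the count follows in part from that choice. With ACM the log2 interactions, KO change minus WT change, were -0.61 for Lipa, -0.32 for Psap, -0.31 for Ctsz, -0.28 for Scarb2, -0.28 for Gaa and -0.26 for Ctsd, and 0.33 for Sgsh, 0.32 for Ctsl and 0.25 for Manba. With S1P they were -1.03 for Lipa, -0.62 for Psap, -0.59 for Gaa, -0.55 for Scarb2, -0.41 for Mcoln1, -0.33 for Ctsd, -0.33 for Ctsh, -0.31 for Ctsz and -0.29 for Tfeb. On the positive side with S1P were Ctsc at 0.73, Ppt1 at 0.54, Arsb at 0.50, Manba at 0.44, Ctsl at 0.42, Sgsh at 0.39 and Lamp1 at 0.36.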

How the results depend on the processing

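The 20 members described in full were followed through 11 comparisons under 10 other settings, and the other members are not among these values. The comparisons within KO, where no member was called, are included. Of 2189 values, 2105 stayed on their side of the threshold, 45 lost their call and 38 gained 1. A change of sign was counted only where either fit made a call. It was seen for 1 value: Ctsb, KO minus WT under S1P, at -0.05446 by quantile normalization against 0.16. With each of 23 libraries left out in turn, 14 of 5060 values of these members lost their call and 36 gained 1. With a call in either fit, 0 changed sign. Uncalled values did change sign, such as that of Arsb between KO ACM and KO S1P (-0.035 to 0.013). TPM moved the counts of called members most: 12 in WT ACM against 25, 1 between untreated KO and WT against 13, 13 between KO and WT under ACM against 21, 20 between WT ACM and WT S1P against 31, and 5 ACM interactions against 12. The share of all genes called by TPM is not given here, so whether members lost calls more than other genes is not shown. Including library 81 gave 6 between untreated KO and WT, where 2.47% of all genes were called, and leaving out a library gave 7 to 18 there. The cause was not tested. No paired analysis was possible because the groups share no replicate numbers in the labels. Read depth was not varied, and every comparison with untreated KO rests on 3 usable libraries there.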
